A study of Mus musculus with 24 samples.

Results

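CD8 and CD4 T cells from the bone marrow of mice treated with ruxolitinib plus cyclosporine (RUX+CSA) were compared gene by gene. The comparison used 6 of the 24 libraries of the study: CD8 pools 10, 11 and 12 against CD4 pools 22, 23 and 24, chosen by their labels for treatment and cell type. All mice were female CByB6F1 animals, an F1 hybrid strain, aged 2 to 5 months, with bone marrow failure (BMF) as the labels name it. The RUX+CSA mice received low dose ruxolitinib, an inhibitor of the kinases JAK1 and JAK2, together with cyclosporine, an inhibitor of the phosphatase calcineurin. Mice without drug (untreated), with CSA alone or with RUX alone made up the other groups, each with 3 CD8 and 3 CD4 pools, and all of these groups carried the disease. Each library came from T cells sorted by flow cytometry from a pool of 2 to 3 mice, so the spread between libraries is a spread between pools and understates that between animals. The labels give neither drug doses nor treatment times, and do not say whether a CD8 and a CD4 pool came from the same mice.

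In immune bone marrow failure, T cells attack the marrow: CD8 T cells kill target cells with perforin and granzymes, and CD4 T cells supply cytokines and contact signals such as CD40 ligand, or, as regulatory T cells, restrain the response. JAK1 and JAK2 transmit signals from cytokine receptors to STAT transcription factors, which induce their own feedback inhibitors of the SOCS family. Calcineurin dephosphorylates NFAT after T cell receptor triggering, and NFAT then induces genes such as cytokines. Both drugs therefore act on signals that CD8 and CD4 cells share.

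The labels were checked against the defining genes. Levels are given as CPM, a gene's read pairs per 1000000 of the library's scaled total, with pools in ascending order of their number. Cd8a (mm10 chromosome 6, 71373427 to 71379171), which encodes the CD8 alpha chain, was at 1057, 1029 and 1048 CPM in the 3 CD8 pools and 1.98, 1.53 and 1.95 CPM in the 3 CD4 pools. Cd4 (chromosome 6, 124864693 to 124888209) measured 0.712, 0.421 and 0.514 CPM in CD8 and 1551, 1704 and 1379 CPM in CD4. Each library thus carried the coreceptor of its label. Cd3e, a chain of the T cell receptor complex that both cell types need, was at 1757, 1622 and 1639.7 CPM in CD8 and 1549, 1876 and 1508 CPM in CD4, and the groups overlapped.

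The 6 libraries held 17.7 to 34.6 M (1000000) read pairs counted in genes, and 13567 to 14873 genes had at least 1 pair. Across genes, log2 CPM correlated (Pearson's r) at 0.986 to 0.989 between CD8 pools, at 0.957 to 0.963 between CD4 pools and at 0.940 to 0.950 between cell types. The biological coefficient of variation was 0.122 in the CD8 and 0.276 in the CD4 pools under RUX+CSA, so the CD4 pools differed more among themselves. No 2 libraries were alike within sampling noise (chi-square per gene 10.9 to 35.1). Among the single-drug groups, 2 CD8 libraries went against their labels: CD8 CSA pool 6 correlated at 0.989 and 0.990 with CD8 RUX pools 8 and 9 and at 0.978 and 0.973 with CD8 CSA pools 4 and 5, and CD8 RUX pool 7 at 0.982 with both of the latter and at 0.967 and 0.964 with CD8 RUX pools 8 and 9. Whether these libraries were exchanged was not tested. They take no part in the 6 libraries compared but enter the shared estimate of spread and the mean of the other groups. Counts without them (named CD8 CSA 6 and CD8 RUX 7) are given for the totals and for some of the lists.

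Of 13476 genes tested, 1990 were higher (14.8%) and 1750 were lower (13%) in CD8 than in CD4 cells under RUX+CSA at an adjusted p below 0.05, together 3740 genes or 27.8%. These shares are the background for the counts of list members below. The groups of 3 did not overlap in 6084 genes (45.1%). A change of more than 2-fold was found in 1334 of the genes past the threshold, 520 of them higher and 814 lower in CD8. The median log2 fold change over all tested genes was -0.0035. Positive log2 fold changes mean a higher level in CD8 throughout.

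**Figure D1:**
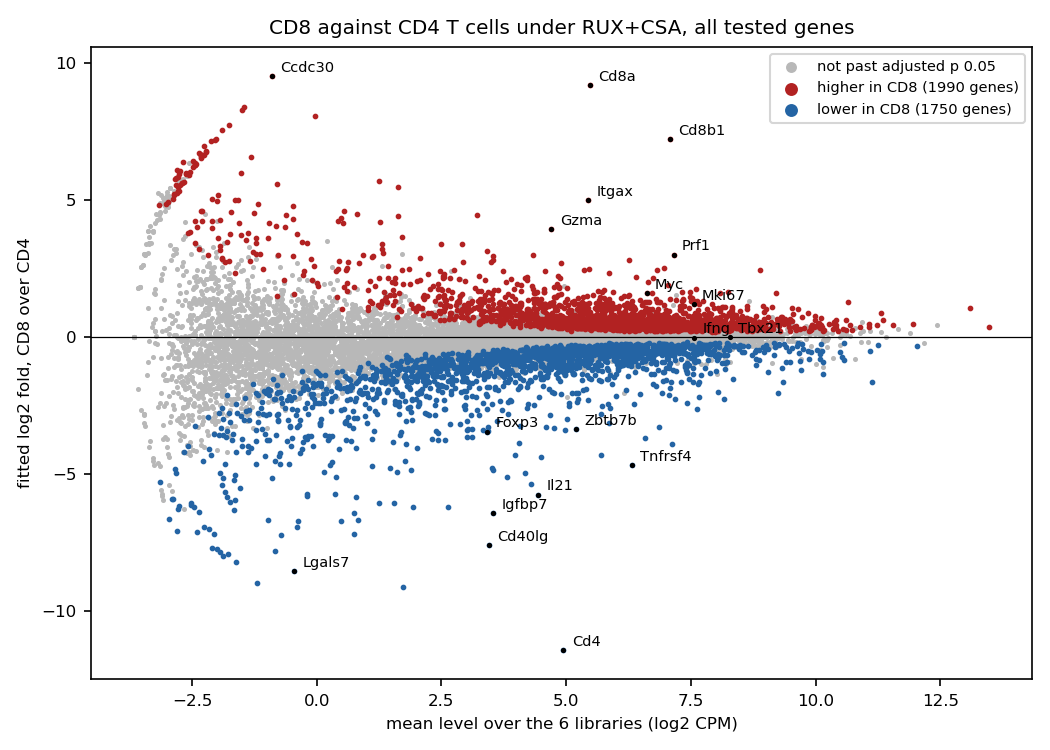
Fitted log2 fold change of CD8 over CD4 under RUX+CSA against the mean level over the 6 libraries (log2 CPM) for 13476 genes; red points are the 1990 genes higher and blue points the 1750 genes lower in CD8 past the threshold, grey points the rest. Cd8a and Cd4 lie farthest from 0 to the right of a mean level of 3, and Ifng and Tbx21 lie on the zero line.

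Markers of other marrow cells were present at different levels in the 2 sorts. The summed level of 20 neutrophil genes ran from 4895 to 6559 CPM in CD8 and from 9145 to 11313 CPM in CD4, without overlap. None of the 20 passed the edgeR test in either direction, 0 had an unadjusted p below 0.05 and DESeq2 and voom called 0, whereas 19 were lower and 1 higher in CD8 in a fit of the 6 libraries alone. Among them, the granule gene Ltf (lactoferrin) was at 1137, 921 and 998 CPM in CD8 and 1662, 2025 and 1452 CPM in CD4, and the calgranulin gene S100a8 at 1008, 659 and 678 and 1597, 1914 and 1519 CPM. Summed macrophage and monocyte genes (25) lay between 812 and 1013 CPM in CD8 and between 1347 and 1623 CPM in CD4, with 1 higher and 5 lower in CD8, and 2 lower without CD8 pool 10 or 12 or CD4 pool 23 and 3 without CD8 pool 11. The lower count was 12 in the fit of the 6 libraries alone, 8 with DESeq2, 2 with voom and 3 without a low-count filter. Of the macrophage genes, Axl was -1.55 and Cebpb -1.55 on the log2 scale, while the complement gene C1qa was at 0.678, 1.08 and 0.605 CPM in CD8 and 1.64, 6.31 and 3.73 CPM in CD4. The C1qa call was lost in 4 of 13 other settings. Erythroid genes summed to 158 to 383 CPM in CD8 and 208 to 580 CPM in CD4, with the globin genes Hba-a1, Hba-a2, Hbb-bs and Hbb-bt listed at 0. These sums thus hold no reads of the listed globin genes. Whether their RNA was absent or its reads went uncounted was not tested. B and plasma cell genes summed to 34.3 to 86.1 and 41.7 to 145 CPM. No erythroid gene had an unadjusted p below 0.05, and 2 B cell genes did, both lower in CD8, where DESeq2 called 0 and voom 4. Of the basophil and mast cell (11 tested), gamma-delta T cell (7), platelet (9), stroma (10) and stem cell (10) genes, none was higher and 1, 1, 0, 4 and 1 were lower in CD8; the stroma count was 2 without CD8 pool 10, 11 or 12 or CD4 pool 23. With the mean log2 CPM of 78 neutrophil, erythroid, B cell and macrophage markers as a covariate in the fit, 3648 genes passed in place of 3740, and 3290 were shared. The part of other cells in the results below was otherwise not tested, and in bulk libraries fewer cells of a type and less RNA per cell cannot be told apart.

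The 12 genes with the highest and the 12 with the lowest fold change among well expressed genes held more than the coreceptors. On the CD8 side, Itgax (mm10 chromosome 7, 128129568 to 128150657), which encodes the integrin CD11c, stood at 253, 256 and 224 CPM in CD8 and 9.31, 6.31 and 7.63 CPM in CD4 (log2 fold change 4.98 ± 1.05 SE, adjusted p = 0.00234). CD11c is a dendritic cell marker that activated CD8 T cells also carry. The 18 dendritic cell genes (16 tested) summed to 589 to 676 CPM in CD8 and 469 to 673 CPM in CD4, with 2 higher (Itgax and Irf8) and 5 lower in CD8, 3 lower without CD8 pool 10 and 3 without CD4 pool 23. Wdr95, Bend4, Fam174b, Eno3, Haao and Apobec2 were also among the highest, with log2 fold changes of 4.45, 3.14, 2.96, 3.00, 2.82 and 2.71. Eno3 encodes the muscle form of enolase and Apobec2 a muscle member of the APOBEC family. Bend4 and Apobec2 were raised in CD4 pool 22 (9.77 and 9.31 CPM) over the other CD4 pools, and without it their log2 fold changes were 4.58 and 3.58. On the CD4 side, Igfbp7, a secreted insulin-like growth factor binding protein, was at 1.19, 0.937 and 1.54 CPM in CD8 and 82.1, 136 and 101 CPM in CD4. Ajuba, an adaptor protein of cell contacts, Arnt2, a basic helix-loop-helix factor, Penk, the enkephalin precursor, and Asb2, a ubiquitin ligase subunit, had log2 fold changes of -4.95, -4.84, -4.36 and -4.30. All of these passed the test with groups that did not overlap, as the naming rule required.

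**Figure D2:**
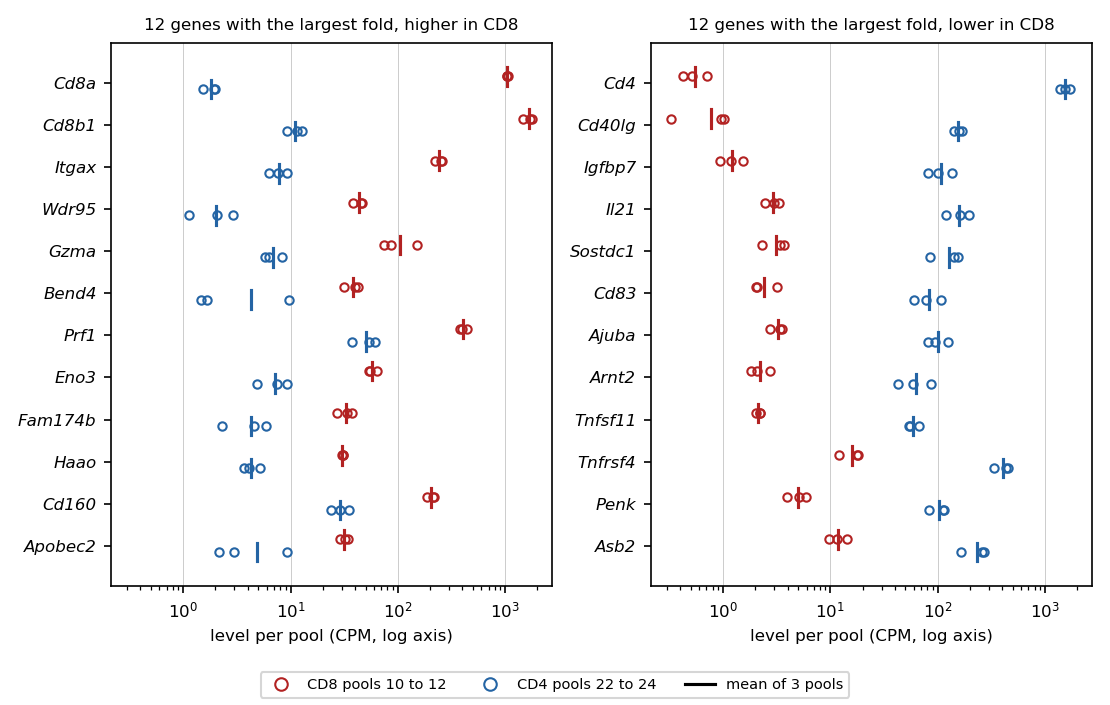
Level per pool (CPM, log axis) of the 12 genes with the highest (left) and the 12 with the lowest (right) log2 fold change; circles are pools, red for CD8 pools 10 to 12 and blue for CD4 pools 22 to 24, and bars are means of 3 pools. No CD8 circle reaches a CD4 circle in any of the 24 genes, as the naming rule required. Gzma has the widest spread among the CD8 pools in the left panel, from 73.7 to 152 CPM.

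Of 18 coreceptor and lineage genes tested, 6 were higher and 4 lower in CD8. Zbtb7b (mm10 chromosome 3, 89377646 to 89393203), which encodes the CD4 lineage factor ThPOK, was at 12.0, 9.37 and 12.9 CPM in CD8 and 114, 122 and 120.5 CPM in CD4 (log2 fold change -3.37 ± 0.28 SE, adjusted p = 7.07e-08). Its counterpart Runx3, the factor that silences Cd4 in CD8 cells, was at 192, 201 and 205 CPM in CD8 and 157, 155 and 135 CPM in CD4 (log2 fold change 0.42 ± 0.14 SE, adjusted p = 0.0284). The Runx3 groups did not overlap, but the call was lost when any 1 of the 6 libraries was left out, with adjusted p up to 0.144. Cbfb, which encodes the DNA binding partner of the RUNX proteins, was higher in CD8 (log2 fold change 0.68 ± 0.10 SE, adjusted p = 3.77e-05), and Gata3, a factor of CD4 development and of T helper 2 cells, was lower (log2 fold change -1.40 ± 0.15 SE, adjusted p = 9.10e-07). Cd8b1, the CD8 beta chain, measured 1784, 1703 and 1468 CPM in CD8 and 12.7, 9.27 and 11.4 CPM in CD4. The number of lineage genes higher in CD8 was 3 without CD8 pool 10 or 12 or without CD4 pool 23 or 24.

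Cytotoxic genes were more often higher than lower in CD8: of 23 tested, 11 were higher, 3 lower and 9 did not pass, with a median log2 fold change of 0.71. Perforin (Prf1, mm10 chromosome 10, 61297836 to 61304263), which forms pores in target cells, stood at 381, 398 and 444 CPM in CD8 and 61.6, 37.4 and 53.8 CPM in CD4 (log2 fold change 3.00 ± 0.29 SE, adjusted p = 9.62e-07). The granule protease granzyme B (Gzmb) was at 1206, 1072 and 1097 CPM in CD8 and 206, 143 and 267 CPM in CD4 (log2 fold change 2.46 ± 0.33 SE, adjusted p = 2.73e-05). Granzyme A (Gzma, chromosome 13, 113093827 to 113100981) was at 152, 73.7 and 87.3 CPM in CD8 and 8.30, 5.82 and 6.35 CPM in CD4 (log2 fold change 3.94 ± 0.68 SE, adjusted p = 0.000452). All CD8 pools lay above all CD4 pools for these 3 genes, but the CD4 pools were not free of them, and granzyme B exceeded 100 CPM in each. Granzyme K (Gzmk) and granzyme M (Gzmm) had log2 fold changes of 2.46 and 2.72, and Crtam, a receptor of cytotoxic cells, 2.70. Nkg7, a granule membrane protein, measured 3658, 3607 and 3132 CPM in CD8 and 1846, 1859.6 and 1907 CPM in CD4, a smaller difference (log2 fold change 0.89 ± 0.10 SE, adjusted p = 1.10e-06), and cathepsin W (Ctsw) differed by 1.12. Fas ligand (Fasl), which kills through the death receptor Fas, was at 152, 167 and 174 CPM in CD8 and 82.7, 96.3 and 123 CPM in CD4 (log2 fold change 0.71 ± 0.19 SE, adjusted p = 0.00968), and the call was lost without CD4 pool 22 (adjusted p = 0.0608). Among the 3 lower genes were serglycin (Srgn), the granule proteoglycan, at -0.92, and TRAIL (Tnfsf10), a death ligand, at -1.14. Granzyme genes lie in clusters of related sequence, so read pairs of close family members can be split between them.

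Receptors of the NK lineage, which activated CD8 cells also display, were split: 9 of 28 tested were higher and 4 lower in CD8, with a median of 0.83. Cd160, a receptor of the immunoglobulin superfamily, stood at 216, 213 and 188 CPM in CD8 and 35.0, 23.8 and 28.8 CPM in CD4 (log2 fold change 2.82 ± 0.19 SE, adjusted p = 3.69e-09). Cd244 (2B4) and Slamf7, both of the SLAM family, were higher by 3.37 and 1.63. NKG2D (Klrk1) was at 513, 498 and 428 CPM in CD8 and 147, 196 and 126 CPM in CD4 (log2 fold change 1.62 ± 0.46 SE, adjusted p = 0.0144), and NKG2A (Klrc1) at 1137, 1056 and 889 and 403, 323 and 301 CPM (log2 fold change 1.58 ± 0.47 SE, adjusted p = 0.0186). The groups of both genes did not overlap, but Klrk1 lost its call without CD4 pool 22 or 24 (adjusted p up to 0.0661) and Klrc1 without CD8 pool 10 or 11 or CD4 pool 23 or 24 (up to 0.0699). CD94 (Klrd1), the partner of NKG2A, was at 344, 343 and 243 CPM in CD8 and 169, 203 and 171 CPM in CD4 without passing (log2 fold change 0.77 ± 0.36 SE, adjusted p = 0.12), and passed in the fit of the 6 libraries alone and without the libraries CD8 CSA 6 and CD8 RUX 7. Klrb1f and Klri2, further NK receptor genes, were lower in CD8 at -1.81 and -2.07. The count of higher genes was 14 in the fit of the 6 libraries alone and 14 without CD8 CSA 6 and CD8 RUX 7. The count of lower genes was 2 without CD8 pool 11 or 12 or CD4 pool 23 or 24. It was 7 in the fit of the 6 libraries alone. Genes of NK cells themselves summed to 976 to 1058 CPM in CD8 and 524 to 565 CPM in CD4, with 4 of 14 higher, Gzma and Eomes among them, 2 lower (1 without CD8 pool 10, 11 or 12 or CD4 pool 23 or 24), and with Klra8 and Klra4 listed at 0. This lower count was 1 without CD8 CSA 6 and CD8 RUX 7 and 4 in the fit of the 6 libraries alone. The NK receptor NKp46 (Ncr1) was at 0.305, 0.0937 and 0.303 CPM in CD8 and 0.758, 1.46 and 1.61 CPM in CD4, and its call was lost in 7 of 13 other settings. NK receptor genes also share sequence, which limits the assignment of reads to single members.

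Helper functions made up the other side. Of 20 T cell cytokine genes tested, 15 were lower and none higher in CD8, with a median log2 fold change of -2.38. Without each library in turn and under the other settings, 12 to 16 were lower, and DESeq2, voom and an unadjusted p below 0.05 gave 0 higher. Interleukin 21 (Il21, mm10 chromosome 3, 37222759 to 37232636), a helper cytokine for B cells and CD8 cells, measured 2.98, 2.48 and 3.36 CPM in CD8 and 121, 195 and 162 CPM in CD4 (log2 fold change -5.74 ± 1.00 SE, adjusted p = 0.000538). Macrophage colony-stimulating factor (Csf1) stood at 38.2, 34.0 and 40.3 CPM in CD8 and 312, 434 and 354 CPM in CD4 (log2 fold change -3.29 ± 0.42 SE, adjusted p = 2.27e-05). RANK ligand (Tnfsf11), which drives osteoclasts, was at 2.20, 2.01 and 2.21 CPM in CD8 and 54.2, 67.0 and 54.8 CPM in CD4 (log2 fold change -4.77 ± 0.60 SE, adjusted p = 1.53e-05). These 3 genes separated the cell types without overlap. Lymphotoxin alpha (Lta), lymphotoxin beta (Ltb), tumour necrosis factor (Tnf) and GM-CSF (Csf2) were lower in CD8 at -3.16, -1.55, -2.18 and -2.15. Interleukin 2 (Il2), the T cell growth factor, was near the lower end of detection in both cell types, at 0.305, 0.562 and 0.393 CPM in CD8 and 1.18, 1.43 and 2.06 CPM in CD4. The Il2 call was lost in 3 of 13 other settings. Interferon gamma (Ifng), a cytokine that suppresses blood formation, did not separate the cell types: it was at 197, 179 and 185 CPM in CD8 and 189.6, 184 and 196 CPM in CD4 (log2 fold change -0.0212 ± 0.35 SE, adjusted p = 0.973). The T helper 1 factor T-bet (Tbx21) likewise measured 322, 310.5 and 304 CPM in CD8 and 291, 339 and 308 CPM in CD4 (log2 fold change -0.00406 ± 0.16 SE, adjusted p = 0.988).

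Contact molecules were more often lower than higher in CD8, with 14 of 25 costimulatory and TNF superfamily genes lower and 6 higher. CD40 ligand (Cd40lg, mm10 chromosome X, 57212143 to 57224042), which licenses B cells and dendritic cells, stood at 1.02, 0.328 and 0.968 CPM in CD8 and 157, 168 and 142 CPM in CD4 (log2 fold change -7.58 ± 0.58 SE, adjusted p = 7.87e-08). OX40 (Tnfrsf4, chromosome 4, 156013695 to 156016589), a receptor for survival signals, was at 12.2, 18.2 and 17.7 CPM in CD8 and 332, 455 and 434 CPM in CD4 (log2 fold change -4.67 ± 0.53 SE, adjusted p = 7.95e-06). The costimulatory receptor ICOS (Icos) and GITR (Tnfrsf18) were lower at -1.64 and -1.65. In the opposite direction, 4-1BB (Tnfrsf9), a costimulatory receptor of activated CD8 cells, measured 372, 332 and 357 CPM in CD8 and 117, 110.4 and 92.3 CPM in CD4 (log2 fold change 1.73 ± 0.39 SE, adjusted p = 0.00303). Cd27 and Cd7 were also higher in CD8, at 1.10 and 2.18. Of 18 follicular helper genes, 13 were lower and none higher in CD8 (median -1.51), a count of 13 under each setting tried, with 0 higher by DESeq2, by voom or at an unadjusted p below 0.05. Maf, Slamf1 and Bcl6, the factor that defines follicular helper cells, were lower at -2.58, -2.45 and -1.13, and Sostdc1, a secreted antagonist of BMP and WNT signals, at -5.34. The homing receptor Cxcr5 of the same list did not pass and its groups overlapped, at 39.1, 44.1 and 42.2 CPM in CD8 and 44.9, 31.6 and 33.3 CPM in CD4. The follicular helper, cytokine and costimulatory lists share members such as Cd40lg and Il21, so their counts are not independent.

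Of 31 regulatory T cell genes tested, 23 were lower and 1 higher in CD8, with a median of -1.99. Foxp3 (mm10 chromosome X, 7579676 to 7595243), the factor that defines regulatory T cells, stood at 3.05, 3.79 and 2.78 CPM in CD8 and 39.8, 29.5 and 35.1 CPM in CD4 (log2 fold change -3.45 ± 0.27 SE, adjusted p = 1.28e-08). The interleukin 2 receptor alpha chain (Il2ra, CD25) was at 14.4, 15.4 and 19.1 CPM in CD8 and 75.5, 109 and 71.8 CPM in CD4 (log2 fold change -2.39 ± 0.37 SE, adjusted p = 0.000136). The inhibitory receptor Ctla4 was at 49.9, 58.8 and 74.6 CPM in CD8 and 167, 178 and 282 CPM in CD4 (log2 fold change -1.77 ± 0.30 SE, adjusted p = 0.000322). No CD8 pool reached a CD4 pool in any of these 3 genes. Ebi3, a subunit of interleukins 27 and 35, Cd83, a surface protein of activated lymphocytes and dendritic cells, and interleukin 10 (Il10) were lower at -3.64, -5.09 and -2.18. Several members of the list, Il2ra, Ctla4 and Tnfrsf4 among them, are also induced in conventional CD4 cells by activation. In the bulk CD4 pools the share of regulatory cells was not measured.

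T helper 1, T helper 2 and T helper 17 genes were more often lower than higher in CD8 where they passed. Of 17 T helper 1 genes, 7 were lower and 3 higher. The higher count was 1 without CD8 pool 10 or 12 or CD4 pool 22 or 23. Summed T helper 1 genes ran from 3507 to 3613 CPM in CD8 and from 4102 to 4911 CPM in CD4. Of 11 T helper 2 genes, 6 were lower and none higher (0 at an unadjusted p below 0.05, by DESeq2 and by voom), and of 11 T helper 17 genes 5 were lower and 1 higher, the single higher call being lost without CD8 pool 10, 11 or 12 or CD4 pool 22 or 24. For T helper 2 genes 1 was higher in the fit of the 6 libraries alone and 1 without CD8 CSA 6 and CD8 RUX 7. The interleukin 33 receptor (Il1rl1) measured 8.14, 4.36 and 7.68 CPM in CD8 and 35.8, 31.8 and 34.1 CPM in CD4 (log2 fold change -2.32 ± 0.30 SE, adjusted p = 1.19e-05). The interleukin 23 receptor (Il23r) was at 0.237, 0.187 and 0.151 CPM in CD8 and 2.23, 1.40 and 4.84 CPM in CD4, highest in CD4 pool 24, and its log2 fold change of -3.84 was -3.24 without that pool. The chemokine receptor Ccr4 was at 0.169, 0.14 and 0.0605 CPM in CD8 and 0.632, 3.48 and 0.891 CPM in CD4, and its fold change of -3.75 was -2.59 without CD4 pool 23, the highest.

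Inhibitory receptors split between the cell types, with 7 of 23 higher and 6 lower in CD8. PD-1 (Pdcd1), the receptor most used to mark exhausted T cells, stood at 694, 691 and 824 CPM in CD8 and 725, 944 and 845 CPM in CD4 (log2 fold change -0.19 ± 0.31 SE, adjusted p = 0.69). Lag3, which binds MHC class II, was at 159, 168 and 257 CPM in CD8 and 169, 201 and 197 CPM in CD4 (log2 fold change 0.0474 ± 0.39 SE, adjusted p = 0.942). Neither passed and both had overlapping groups. Cd5, which dampens T cell receptor signals, was lower in CD8 at -1.16 and the inhibitory receptor gene Lilrb4a by -2.42, while Cd160 and Cd244, given above, were the members with the highest fold changes.

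Chemokine receptors and adhesion molecules differed gene by gene, with 7 of 36 tested higher and 13 lower in CD8; the higher count was 4 without CD4 pool 24. Fractalkine receptor (Cx3cr1), a marker of effector cells, measured 132, 96.8 and 91.1 CPM in CD8 and 24.5, 20.8 and 12.4 CPM in CD4 (log2 fold change 2.47 ± 0.29 SE, adjusted p = 5.09e-06). Ccl5, a chemokine that effector T cells secrete, was at 2702, 2581 and 2285 CPM in CD8 and 987, 1101 and 1002 CPM in CD4 (log2 fold change 1.29 ± 0.21 SE, adjusted p = 0.00014). The CD8 and CD4 pools did not overlap in either gene. On the CD4 side, integrin beta 1 (Itgb1), which binds fibronectin and other matrix proteins, was at 1307, 1316 and 1167 CPM in CD8 and 3833, 4354 and 3719 CPM in CD4 (log2 fold change -1.65 ± 0.17 SE, adjusted p = 7.25e-07). Ccr8, Rgs1, a brake on chemokine receptor signals, and Cxcr6, a receptor of tissue-resident cells, were lower in CD8 at -3.85, -1.61 and -0.80. The integrin alpha 4 gene (Itga4) was higher in CD8 at 0.65, and Selplg, the selectin ligand PSGL-1, at 0.69. The chemokine Ccl1 was at 0.203, 0.328 and 0.242 CPM against 13.5, 17.4 and 19.9 CPM in CD4.

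**Figure D3:**
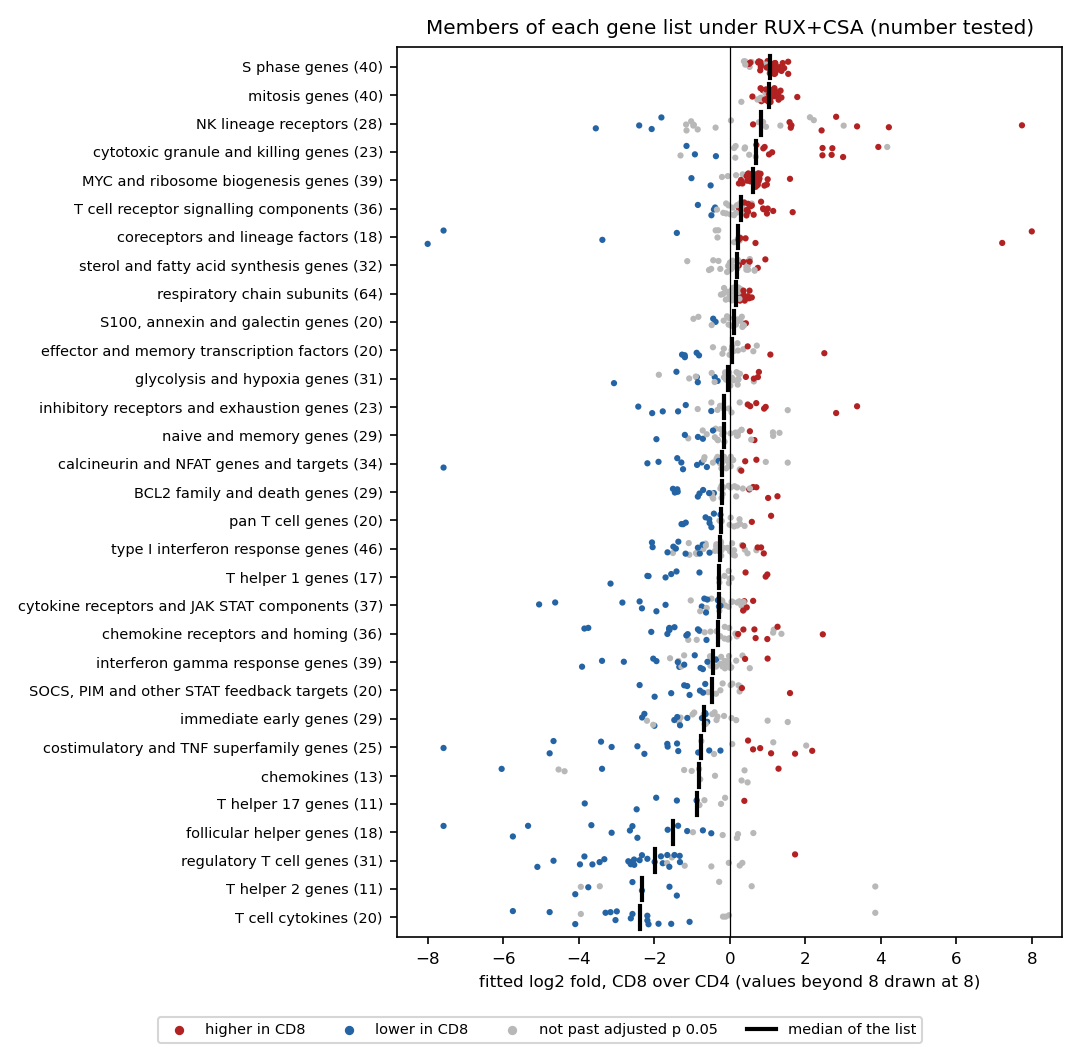
Fitted log2 fold change of CD8 over CD4 under RUX+CSA for the members of 31 functional gene lists, with the number tested in brackets; red points were higher and blue points lower in CD8 past the threshold, grey points did not pass, and black bars are list medians. S phase and mitosis genes have the highest medians (1.06 and 1.05), and T cell cytokines the lowest (-2.38).

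Genes of the pathway that ruxolitinib targets differed between the cell types. Of 37 cytokine receptor and JAK-STAT genes tested, 4 were higher and 14 lower in CD8, with a median of -0.28. Here the higher count was 2 without CD8 pool 11 or CD4 pool 24. It was 7 in the fit of the 6 libraries alone and 7 without CD8 CSA 6 and CD8 RUX 7. The 2 drug targets went opposite ways. Jak1 was at 1842, 1942 and 2071 CPM in CD8 and 1291, 1314 and 1204 CPM in CD4 (log2 fold change 0.62 ± 0.10 SE, adjusted p = 7.69e-05), and Jak2 at 215, 241 and 256 and 386, 357 and 393 CPM (log2 fold change -0.67 ± 0.10 SE, adjusted p = 3.95e-05). The common gamma chain (Il2rg), shared by the receptors for interleukins 2, 7, 15 and 21, and the interleukin 7 receptor (Il7r) were lower in CD8, at -0.74 and -1.94, as was Stat5a, which acts downstream of them, at -0.59. Of 20 SOCS, PIM and other STAT feedback genes, 9 were lower and 2 higher in CD8; the higher count was 1 without CD8 pool 10 or 11 or CD4 pool 23 or 24. Cish, a STAT5-induced inhibitor, stood at 33.1, 32.3 and 33.6 CPM in CD8 and 86.1, 117 and 86.6 CPM in CD4 (log2 fold change -1.55 ± 0.40 SE, adjusted p = 0.00777). Socs1, which blocks JAK activity, was at 28.3, 35.2 and 35.1 CPM in CD8 and 71.0, 70.1 and 86.5 CPM in CD4 (log2 fold change -1.21 ± 0.33 SE, adjusted p = 0.0104), and its call was lost without CD8 pool 10 (adjusted p = 0.0518). Socs2 was lower in CD8 at -1.99. Cish and Socs1 were lower in CD8 without drug as well: the untreated log2 fold changes were -1.16 for Cish and -1.04 for Socs1, and the interaction terms for both did not pass (adjusted p = 0.777 and 0.9).

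Of 34 calcineurin and NFAT genes and targets tested, 10 were lower and 3 higher in CD8, with a median of -0.22. Without CD8 pool 10 the counts were 6 lower and 1 higher, and without CD4 pool 22 none was higher. In the fit of the 6 libraries alone 5 were higher, and without CD8 CSA 6 and CD8 RUX 7 also 5. Orai1, the pore of the calcium channel that feeds calcineurin, was at 78.4, 76.8 and 85.7 CPM in CD8 and 190.4, 203 and 192 CPM in CD4 (log2 fold change -1.28 ± 0.16 SE, adjusted p = 6.51e-06). Egr3, an NFAT-induced factor, was lower in CD8 (log2 fold change -1.39 ± 0.40 SE, adjusted p = 0.0135) with a call lost without CD8 pool 11 (adjusted p = 0.0501), and the phosphatase gene Dusp14 was lower at -0.87. The orphan receptor Nr4a1, induced by T cell receptor signals, measured 220.2, 218 and 240.2 CPM in CD8 and 336, 244 and 269.6 CPM in CD4 without passing (log2 fold change -0.32 ± 0.55 SE, adjusted p = 0.7). Of 29 immediate early genes, 11 were lower and none higher in CD8, with a median of -0.69. At an unadjusted p below 0.05 there was 1 higher, with 1 by DESeq2 and 2 by voom. In the fit of the 6 libraries alone 24 were lower and 2 higher. Without CD8 pool 11 there were 7 lower, and without CD8 CSA 6 and CD8 RUX 7 there was 1 higher. Nfkbia, the inhibitor and target of NF-kappa-B, stood at 131, 135 and 130.0 CPM in CD8 and 483, 556 and 539 CPM in CD4 (log2 fold change -1.99 ± 0.21 SE, adjusted p = 1.10e-06). Dusp1, a phosphatase of MAP kinases, was at 125, 108 and 162 CPM in CD8 and 628, 544 and 726 CPM in CD4 (log2 fold change -2.26 ± 0.52 SE, adjusted p = 0.00386). Junb and Zfp36l1 were lower at -1.12 and -1.32. Neutrophil and macrophage marker sums, given above, were also higher in the CD4 pools, and their part in these calls was not tested beyond the covariate fit, in which 10 immediate early genes were lower and 2 higher.

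Interferon response genes were lower in CD8 where they passed, with exceptions. Of 39 interferon gamma response genes, 13 were lower and 2 higher in CD8 (median -0.45), with 8 lower without CD8 pool 10 and 9 lower with the other-cell markers as a covariate. Cxcl10, a chemokine that draws T cells, measured 3.08, 2.34 and 2.12 CPM in CD8 and 18.9, 34.4 and 25.5 CPM in CD4 (log2 fold change -3.38 ± 0.51 SE, adjusted p = 8.12e-05). PD-L1 (Cd274) was lower at -1.38. The serpin gene Serpina3f had the lowest fold change of the list, -3.91, and shares sequence with its neighbour Serpina3g. Irf1, a transcription factor of the response, did not pass, at 358, 355 and 357 CPM in CD8 and 343, 378 and 363 CPM in CD4. Irf8 was higher in CD8, at 225, 218 and 222 CPM against 120.2, 107 and 105 CPM in CD4 (log2 fold change 1.00 ± 0.18 SE, adjusted p = 0.000422). Of 46 type I interferon response genes, 11 were lower and 4 higher (median -0.27), and the higher count was 2 without CD8 pool 10 or 11 or CD4 pool 23 or 24. Ly6a (Sca-1), at 433, 368 and 315 CPM in CD8 and 1054, 1308 and 1134 CPM in CD4, and Ifitm2, at -2.04 on the log2 scale, were lower, and Sp100, a nuclear body protein, and Ifit2 were higher at 0.83 and 0.90.

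T cell receptor signalling components leaned to the CD8 side, with 16 of 36 higher and 4 lower (median 0.31); the lower count was 2 without CD8 pool 10 or CD4 pool 23. The tyrosine kinase Tec was at 29.9, 30.7 and 32.9 CPM in CD8 and 12.0, 5.82 and 11.7 CPM in CD4 (log2 fold change 1.67 ± 0.20 SE, adjusted p = 4.66e-06). The adaptor Sh2d2a measured 1053, 1158 and 1215 CPM in CD8 and 608, 565 and 533 CPM in CD4 (log2 fold change 1.01 ± 0.16 SE, adjusted p = 8.12e-05). The kinase Fyn and the ubiquitin ligase Cblb, which restrains signalling, were higher by 0.63 and 0.89, whereas the kinase Zap70 was lower at -0.49. Of 20 pan T cell genes, 2 were higher and 9 lower in CD8, 5 lower without CD4 pool 23. The receptor zeta chain (Cd247) and the surface proteins Cd5 and Cd6 were lower at -0.64, -1.16 and -1.28, and Themis, a thymocyte selection protein, was higher at 0.59.

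Among 20 effector and memory transcription factors, 3 were higher (15%) and 5 lower (25%) in CD8, against 14.8% and 13% of all tested genes. Eomesodermin (Eomes, mm10 chromosome 9, 118478189 to 118486132), which drives perforin and memory programmes in CD8 cells, stood at 299, 304 and 304 CPM in CD8 and 74.1, 34.9 and 50.8 CPM in CD4 (log2 fold change 2.51 ± 0.31 SE, adjusted p = 1.26e-05). The Ikaros family factor Ikzf3 (Aiolos) was higher by 1.08. Bhlhe40, a factor for cytokine production in CD4 cells, was at 499, 563 and 609.8 CPM in CD8 and 1133, 1427 and 1259 CPM in CD4 (log2 fold change -1.19 ± 0.14 SE, adjusted p = 2.12e-06). Batf, Id3 and Id2 were lower at -0.88, -1.19 and -0.81. Tcf7 (TCF-1), a factor of naive and stem-like cells, measured 304, 314 and 282 CPM in CD8 and 492, 347 and 325 CPM in CD4 without passing (log2 fold change -0.37 ± 0.29 SE, adjusted p = 0.361). Of 29 naive and memory genes, 2 were higher (6.9%) and 5 lower (17.2%), Cd44, a marker of experienced T cells, among the lower at -0.84. The higher count was 1 without CD8 pool 12 or CD4 pool 23 or 24. It was 5 without CD8 CSA 6 and CD8 RUX 7 and 4 with the other-cell markers as a covariate. In the fit of the 6 libraries alone 7 were higher and 9 lower.

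Genes of cell division were higher in CD8. Of 40 mitosis genes tested, 34 were higher and none lower in CD8, with a median log2 fold change of 1.05, and of 40 S phase genes 34 were higher and none lower, with a median of 1.06. The mitosis count rested in part on single pools: it was 22 without CD8 pool 10 and 15 without CD4 pool 23, while the S phase count stayed between 27 and 39 under all settings. In the lower direction, DESeq2, voom and an unadjusted p below 0.05 gave 0 genes of either list. Summed over the 40 members, mitosis genes ran from 3821 to 4536 CPM in CD8 and from 1623 to 2271 CPM in CD4, and S phase genes from 6172 to 7125 CPM and from 3138 to 3597 CPM. Ki-67 (Mki67), the usual marker of cycling cells, stood at 297, 234 and 327 CPM in CD8 and 147, 108 and 123 CPM in CD4 (log2 fold change 1.18 ± 0.29 SE, adjusted p = 0.00526). The mitotic kinesin Kif11 was at 233, 186 and 240.1 CPM in CD8 and 83.3, 69.2 and 103 CPM in CD4 (log2 fold change 1.37 ± 0.30 SE, adjusted p = 0.00247). Mcm6, a subunit of the replicative helicase, measured 876, 755 and 801 CPM in CD8 and 392, 362 and 392 CPM in CD4 (log2 fold change 1.09 ± 0.21 SE, adjusted p = 0.000678). In each of these 3 genes the lowest CD8 pool lay above the highest CD4 pool. Ckap2l and Spc25, proteins of the spindle and the kinetochore, were higher by 1.35 and 0.96, Birc5 (survivin) by 1.26, the replication factors Cdt1 and Rpa2 by 0.77 and 0.98, the polymerase subunit Pold1 by 0.82, and E2f1, which activates S phase genes, by 1.44. Cdk1, the kinase of mitotic entry, was higher by 1.16, with a call lost without CD4 pool 23 (adjusted p = 0.0546).

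Members of these 2 lists passed in 1 direction only, as did those of other lists such as the T cell cytokines. The promoters of these 2 lists were read from the RefSeq table (GRCm38.p6, the mm10 assembly), 250 bases before to 50 bases after the annotated start. Cell cycle genes are known to carry 2 kinds of element: the CHR, which with CCAAT boxes binds complexes acting late in the cycle, and E2F sites, which act at the entry to S phase. The CHR was searched as TTTGAA, the CCAAT box as CCAAT, and E2F sites as TTTGGCGC, TTTCGCGC, TTTGGCGG or TTTCCCGC, all on both strands. The CHR letters were found in 25 of 33 mitosis promoters present in the table (75.8%), 14.5% of the promoters of tested genes and 20.2% of all promoters in the table. CCAAT was found in 72.7% of mitosis promoters and 42.6% of those of tested genes. E2F letters were found in 16 of 32 S phase promoters (50%) and in 4.89% of those of tested genes. Over all genes, E2F letters lay in 8.78% of the promoters of genes higher in CD8 and 2.81% of those of genes lower in CD8, CHR letters in 16.4% and 13.4%, and CCAAT in 44.2% and 41.3%. Motif matches describe these windows only. The shares of the mitosis and S phase lists cover every member with a promoter, whether or not it passed.

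Promoters of 3 mitosis genes with both a CHR and a CCAAT box show the arrangement, with CHR and CCAAT letters in capitals, also where they lie on the opposite strand (TTCAAA and ATTGG).
Kif11 (chr19:37376132-37376431, plus strand): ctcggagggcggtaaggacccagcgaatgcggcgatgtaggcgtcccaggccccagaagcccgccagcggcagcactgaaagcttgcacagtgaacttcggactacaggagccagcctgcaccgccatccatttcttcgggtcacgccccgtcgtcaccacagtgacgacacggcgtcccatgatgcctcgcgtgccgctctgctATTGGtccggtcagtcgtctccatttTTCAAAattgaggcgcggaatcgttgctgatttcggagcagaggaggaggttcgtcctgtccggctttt
Ckap2l (chr2:129297163-129297462, minus strand): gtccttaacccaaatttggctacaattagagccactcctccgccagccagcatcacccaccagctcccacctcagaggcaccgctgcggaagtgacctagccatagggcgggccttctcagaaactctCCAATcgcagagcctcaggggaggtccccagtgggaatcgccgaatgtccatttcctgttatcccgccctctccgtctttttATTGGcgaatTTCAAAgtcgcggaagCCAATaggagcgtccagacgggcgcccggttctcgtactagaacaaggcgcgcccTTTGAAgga
Spc25 (chr2:69206164-69206463, minus strand): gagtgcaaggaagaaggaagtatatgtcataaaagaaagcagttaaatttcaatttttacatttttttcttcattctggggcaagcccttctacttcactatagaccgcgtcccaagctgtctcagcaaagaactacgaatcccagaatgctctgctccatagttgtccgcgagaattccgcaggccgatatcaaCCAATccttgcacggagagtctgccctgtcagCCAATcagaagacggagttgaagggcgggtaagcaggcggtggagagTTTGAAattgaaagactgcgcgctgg
Promoters of 3 S phase genes carry E2F letters, in capitals, and Mcm6 holds 3 matches, of which 2 overlap.
Mcm6 (chr1:128359656-128359955, minus strand): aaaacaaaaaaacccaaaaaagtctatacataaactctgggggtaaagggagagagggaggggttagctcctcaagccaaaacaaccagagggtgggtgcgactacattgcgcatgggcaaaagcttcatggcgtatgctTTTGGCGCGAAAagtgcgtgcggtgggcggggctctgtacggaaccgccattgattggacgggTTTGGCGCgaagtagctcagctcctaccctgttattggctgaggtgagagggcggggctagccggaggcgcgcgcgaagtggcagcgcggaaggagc
Pold1 (chr7:44548766-44549065, minus strand): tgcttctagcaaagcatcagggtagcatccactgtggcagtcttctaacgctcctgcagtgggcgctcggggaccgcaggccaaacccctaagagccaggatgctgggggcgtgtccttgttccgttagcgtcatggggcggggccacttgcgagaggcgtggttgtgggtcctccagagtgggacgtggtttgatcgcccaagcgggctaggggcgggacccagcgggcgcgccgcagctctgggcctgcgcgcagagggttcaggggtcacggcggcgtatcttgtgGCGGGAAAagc
Cdt1 (chr8:122567765-122568064, plus strand): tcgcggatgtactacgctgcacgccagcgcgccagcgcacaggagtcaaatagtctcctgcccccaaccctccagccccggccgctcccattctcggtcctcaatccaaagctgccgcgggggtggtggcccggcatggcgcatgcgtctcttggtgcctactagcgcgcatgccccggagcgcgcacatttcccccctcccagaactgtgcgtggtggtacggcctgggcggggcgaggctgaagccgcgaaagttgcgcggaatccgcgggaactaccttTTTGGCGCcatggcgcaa
The Kif11 window has its CHR downstream of an ATTGG, and Spc25 has 2 CCAAT boxes upstream of 1 CHR. The windows of Pold1 and Cdt1 hold 1 E2F match each.

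Growth genes were also higher in CD8. Of 39 MYC and ribosome biogenesis genes, 33 were higher and 2 lower in CD8 (median 0.62), and 28 to 33 were higher under all settings. Myc (mm10 chromosome 15, 61985341 to 61990361), which drives growth and ribosome production, stood at 167, 184 and 161 CPM in CD8 and 63.3, 50.6 and 55.5 CPM in CD4 (log2 fold change 1.60 ± 0.12 SE, adjusted p = 1.14e-08). The ribosome assembly factor Tsr1 and spermidine synthase (Srm) were higher by 1.01 and 0.98. Against the rest of the list, ornithine decarboxylase (Odc1), another MYC target of polyamine synthesis, was lower, at 127, 129 and 119 CPM in CD8 and 238, 266 and 252 CPM in CD4 (log2 fold change -1.01 ± 0.16 SE, adjusted p = 9.87e-05). Of 64 respiratory chain subunits, 13 were higher (20.3%, against 14.8% of all tested genes) and none lower (median 0.16), Uqcrfs1 of complex III by 0.52; the count was 4 without CD8 pool 10, 7 without CD8 pool 11, 8 without CD4 pool 23 and 7 without CD4 pool 24. Of 31 glycolysis and hypoxia genes 4 were higher (12.9%) and 6 lower (19.4%), against 14.8% and 13% of all tested genes. Hif1a, the hypoxia factor, was at 610.4, 611 and 620.0 CPM in CD8 and 1141, 1191 and 1038 CPM in CD4 (log2 fold change -0.87 ± 0.12 SE, adjusted p = 2.26e-05), and lactate dehydrogenase B (Ldhb) was lower in CD8 at -3.07. Of 32 sterol and fatty acid synthesis genes 6 were higher (18.8%) and none lower, fatty acid synthase (Fasn) by 0.74; the count was 3 without CD8 pool 10 or CD4 pool 24. No respiratory chain gene and 1 sterol gene was lower at an unadjusted p below 0.05, and DESeq2 and voom called 0 lower in both lists. Among 29 BCL2 family and death genes, 5 were higher (17.2%) and 9 lower (31.0%). Of this list, 3 were higher without CD4 pool 22, and 5 lower without CD8 pool 12 or CD4 pool 23. BIM (Bcl2l11), which promotes apoptosis, was at 129.8, 153 and 169 CPM in CD8 and 68.8, 78.6 and 76.1 CPM in CD4 (log2 fold change 1.02 ± 0.24 SE, adjusted p = 0.00409), and the inhibitor of apoptosis Birc3 and the caspases Casp1 and Casp4 were lower at -0.80, -0.84 and -1.39.

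**Figure D4:**
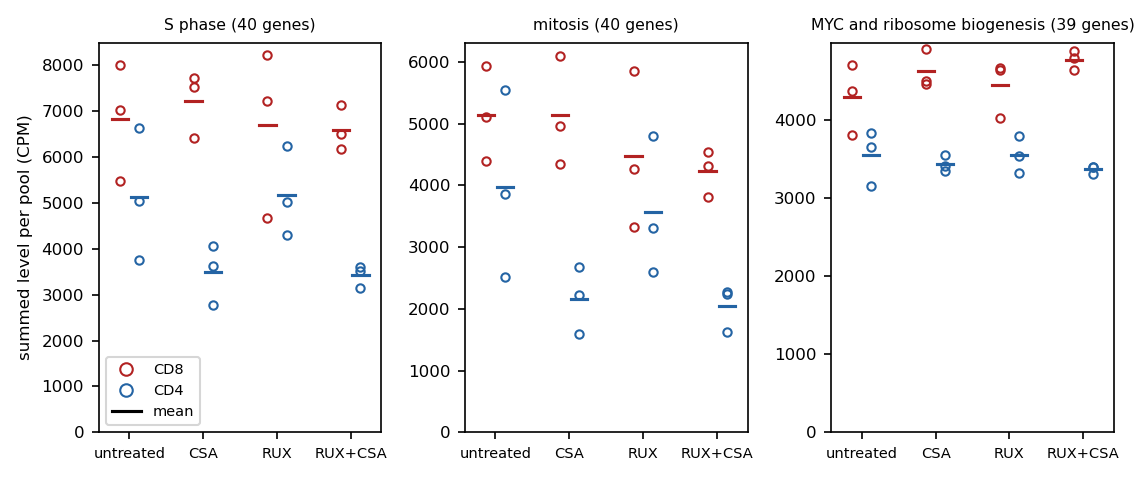
Summed level per pool (CPM) of S phase (40), mitosis (40) and MYC and ribosome biogenesis (39) genes in the 24 libraries, by treatment; circles are pools, bars means of 3 pools, red CD8 and blue CD4. Under RUX+CSA and under CSA the CD8 and CD4 pools do not overlap in any panel. In untreated pools the sums overlap in every panel, and in RUX pools S phase and mitosis sums do. The untreated overlaps rest on CD4 pool 13 (S phase 6621, mitosis 5554, MYC and ribosome biogenesis 3830 CPM). The other untreated CD4 pools lie at up to 5038, 3863 and 3650 CPM. The lowest untreated CD8 pools lie at 5477, 4391 and 3810 CPM. The S phase overlap under RUX rests on CD8 RUX pool 7 (4658 CPM). The other CD8 RUX pools lie at 7226 and 8219 CPM and the CD4 RUX pools at up to 6239 CPM.

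The same contrast was made in the untreated pools, to ask whether the CD8-CD4 difference depended on the drugs. There, 970 genes were higher (7.2%) and 1354 lower (10%) in CD8, 17.2% in all. The spread between pools was wider without drug, with a biological coefficient of variation of 0.174 in CD8 and 0.368 in CD4. The difference itself was tested with an interaction term, the CD8-CD4 difference under RUX+CSA minus that in untreated pools. This passed in 3 genes (0.0223%) with edgeR, while 1906 genes (14.1%) had an unadjusted p below 0.05 and DESeq2 called 208. Against the mean difference in untreated, CSA and RUX pools it also passed in 3 genes, with 1464 at an unadjusted p below 0.05 and 96 called by DESeq2.

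In untreated pools no mitosis gene passed and 3 S phase genes did, with median log2 fold changes of 0.35 and 0.43 against 1.05 and 1.06 under RUX+CSA. No interaction term passed in either list with edgeR, and 5 of 40 mitosis and 9 of 40 S phase terms, all positive, had an unadjusted p below 0.05 (12.5% and 22.5%), against 14.1% of all tested genes, of which 1006 were positive and 900 negative. Mitosis sums ran from 4391 to 5931 CPM in CD8 and 2511 to 5554 CPM in CD4 pools without drug, which overlapped, against 3821 to 4536 and 1623 to 2271 CPM under RUX+CSA. The overlap without drug rested on CD4 pool 13, as CD4 pools 14 and 15 were at 2511 and 3863 CPM. Mki67 differed by 0.57 without drug and by 1.18 under RUX+CSA, with an interaction of 0.62 ± 0.40 SE, adjusted p = 0.507. MYC and ribosome biogenesis genes had 17 higher and 1 lower without drug, and 13 positive and 1 negative terms of 39 at an unadjusted p below 0.05. Respiratory chain genes had no call without drug and 13 such positive terms of 64. Lineage functions had the same direction in both settings in the 3 genes chosen as examples. Prf1 differed by 2.95 without drug and 3.00 under RUX+CSA (interaction 0.0547 ± 0.39 SE, adjusted p = 0.964), Gzmb by 1.93 and 2.46 (0.52 ± 0.44 SE, adjusted p = 0.615), and Foxp3 by -4.78 and -3.45 (1.34 ± 0.36 SE, adjusted p = 0.138). Il21 was at 18.0 CPM on average in CD8 pools without drug and 2.94 CPM under RUX+CSA, and at 152 and 159 CPM in CD4, and its interaction of -2.65 ± 1.22 SE, adjusted p = 0.336 did not pass.

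The 5 genes with an interaction term past the threshold were xanthine dehydrogenase (Xdh), Cd68, Lgals7, Trio and Ccdc30; the last 3 have low levels, fall outside the naming rule and were chosen after their values were seen. Xdh, an enzyme of purine breakdown, was at 312, 345 and 394 CPM in CD8 and 619, 626 and 646 CPM in CD4 under RUX+CSA and at 323, 338 and 395 and 349, 305 and 292 CPM without drug (interaction -1.01 ± 0.17 SE, adjusted p = 0.0464). Its CD4 level was also 592, 762 and 604 CPM in the CSA pools and 341, 339.8 and 368 CPM in the RUX pools, so both groups that received CSA had the higher CD4 levels. Cd68, a lysosomal protein best known from macrophages, stood at 43.2, 43.1 and 37.8 CPM in CD8 and 13.2, 13.4 and 13.3 CPM in CD4, and at 17.7, 16.3 and 17.1 and 12.5, 24.7 and 23.6 CPM without drug (interaction 1.88 ± 0.33 SE, adjusted p = 0.0464). In the CSA pools Cd68 was at 23.5, 28.7 and 20.0 CPM in CD8 and 19.9, 12.6 and 17.4 CPM in CD4. In the RUX pools it was at 34.8, 23.5 and 18.2 CPM in CD8 and 9.93, 10.6 and 12.1 CPM in CD4. CD8 thus lay above CD4 without overlap under each single drug as well. Against the mean of the other groups the Cd68 interaction did not pass with edgeR (adjusted p = 0.137). The median interaction of the 25 macrophage and monocyte genes was 1.67, against 0.03 over all tested genes, and 12 of their terms had an unadjusted p below 0.05, all positive. Medians of other marrow cell lists were also positive, for platelet (2.22), neutrophil (1.52), basophil and mast cell (1.37), erythroid (1.15) and stem cell genes (0.87). Those of gamma-delta T cell (-0.16) and stroma genes (-0.31) were negative. Under RUX+CSA itself 24 of the 25 macrophage and monocyte genes had a fold change below 0 in CD8. Their summed level in CD8 was 281 to 433 CPM without drug and 812 to 1013 CPM under RUX+CSA, and in CD4 767 to 2018 and 1347 to 1623 CPM, and the part of these cells in the Cd68 result was not tested. The Xdh and Cd68 interactions against untreated pools were lost in 13 and 14 of 19 other settings, and the values of Lgals7, Trio and Ccdc30 are given in the closing section.

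**Figure D5:**
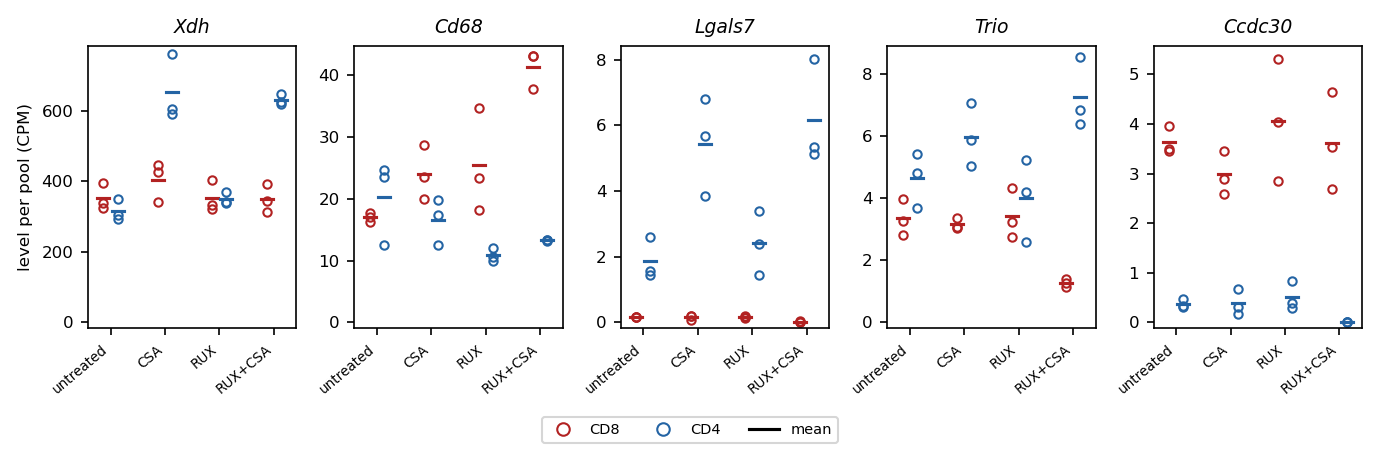
Level per pool (CPM) of the 5 genes whose CD8-CD4 difference under RUX+CSA differed from that in untreated pools or from the mean of the other groups; circles are pools, bars means of 3 pools, red CD8 and blue CD4. Xdh is higher in CD4 than in CD8 in the CSA and RUX+CSA pools. Cd68 is higher in CD8 without overlap in the CSA, RUX and RUX+CSA pools, and Ccdc30 is at 0 in the 3 CD4 pools under RUX+CSA.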

How the data were processed

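RNA of sorted CD8 and CD4 marrow T cells was sequenced with a SMART-Seq mRNA kit, per the labels' protocols, in 24 libraries. The authors deposited raw counts of read pairs per gene, made with featureCounts 2.0.3 over exons of a UCSC mm10 annotation without a strand option, per the file headers, after alignment with STAR, per the submitters' processing notes. Antisense or overlapping genes and close paralogs therefore cannot be told apart fully.

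From the deposited counts, edgeR 4.0.16 (R 4.3.3) gave TMM factors and CPM, kept genes with filterByExpr and tested 13476 of 24421 genes by its quasi-likelihood F test (robust option), with a mean for each of 8 groups, over all 24 libraries, which share 1 estimate of spread. P-values are two-sided, were adjusted by the Benjamini-Hochberg method over all tested genes, with 0.05 as the threshold, and measure the spread between pools. Standard errors come from the F statistic. The script was tested on simulated data. The floor of 3 counts amounts to 0.0908 to 0.167 CPM; like the intervals, it takes in counting error alone, since read pairs are not independent molecules. Totals were 17.7 to 34.6 M pairs.

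Alternatives were a fit of the compared libraries, RLE factors, no filter, DESeq2 1.42.0, voom (limma 3.58.1), an other-cell covariate, and leaving out libraries. Named genes were the 12 highest and 12 lowest by fold past the threshold whose log2 CPM averaged 3 or more and whose groups did not overlap, up to 4 members with the smallest p of each of 31 lists, 24 genes always included, up to 8 each way for interactions, and examples of the lists. The rule, lists and members were chosen with earlier results of these data known. A few named genes were left out of the text.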

Additional observations from a re-analysis of the deposited data

Results flagged for a closer look

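The CD8-CD4 difference under RUX+CSA differed from that in untreated pools, by the interaction test, in 3 genes. The interaction was 1.88 for Cd68, -5.10 for Lgals7, which encodes galectin 7, and -1.01 for Xdh, each with an adjusted p of 0.0464. Against the mean difference of the untreated, CSA and RUX pools it was 6.45 for Ccdc30 (adjusted p = 0.0244), -4.43 for Lgals7 (0.0404) and -1.98 for Trio (0.0244), a guanine nucleotide exchange factor.

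Lgals7 had 1 count in the 3 CD8 pools and 466 in the 3 CD4 pools under RUX+CSA, so its CD8 level was 0.185% of the CD4 level (95% exact Clopper-Pearson interval 0.00468% to 1.04%, counting error only). In untreated pools the counts were 11 and 146, a CD8 level of 8.95% of that in CD4 (4.37% to 16.5%). The CD8 level of Lgals7 was 2.83% of that in CD4 under CSA (1.49% to 4.89%) and 7.29% under RUX (3.58% to 13.3%). Ccdc30, a gene of a coiled-coil protein, had 295 counts in CD8 and 0 in CD4 under RUX+CSA, at least 27.8-fold higher in CD8 against a floor of 3 counts per library, and 237 and 29 counts without drug. Under CSA it had 248 and 28 counts, and under RUX 263 and 45. Trio stood at 1.25, 1.40 and 1.15 CPM in CD8 and 6.40, 8.56 and 6.85 CPM in CD4 under RUX+CSA and at 2.82, 3.96 and 3.28 and 3.70, 4.81 and 5.42 CPM without drug, and the 2 shifts were not tested singly. By summed counts its CD8 level was 16.9% of that in CD4 under RUX+CSA and 72.7% without drug. It was 52.1% under CSA and 88.6% under RUX. Without CD8 pool 12, which held the single Lgals7 count, its interaction was -6.84 against untreated and -6.17 against the other groups.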

How the results depend on the processing

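The number of genes past the threshold between CD8 and CD4 cells under RUX+CSA, 3740, was 4023 in a fit of the 6 libraries alone, 3645 with RLE factors, 3270 without a filter, 4095 with DESeq2, 3683 with voom, 3648 with the other-cell covariate and 4146 without CD8 CSA 6 and CD8 RUX 7, and 2608 to 3369 when 1 of the 6 libraries was left out. Of the 140 genes past the threshold that the rule names, 133 passed in each of these fits and none changed sign. Many of them were named for a small p or a large fold in the same libraries. Their stability therefore does not measure that of all calls. Of all 3740 genes, 2573 to 3021 passed again when 1 of the 6 libraries was left out. The settings printed with a gene list above are not all of those that moved its counts. The 2 interaction counts depended on the setting. Against untreated pools (3), the count was 42 in a fit of the compared libraries, 0 with RLE factors, 7 without a filter, 208 with DESeq2, 0 with voom, 0 with the covariate, 114 without CD8 CSA 6 and CD8 RUX 7, and 0 to 6 without single libraries. Against the mean of the other groups (3), it was 1 without a filter, 96 with DESeq2, 0 with voom, 59 without CD8 CSA 6 and CD8 RUX 7, and 0 to 7 without single libraries. Cd68, Xdh and Lgals7 lost their call against untreated in 14, 13 and 12 of 19 settings, with adjusted p up to 0.158, 0.158 and 0.177. Ccdc30, Trio and Lgals7 lost theirs against the other groups in 6, 6 and 8 of 12, with adjusted p up to 0.179, 0.21 and 0.248. The cause was not tested. Of the variance of the other-cell marker mean, 75.4% lay between the 8 groups, so that covariate is partly confounded with them. No paired analysis was made. The labels do not say whether CD8 and CD4 pools came from the same mice, and the pools, numbered 1 to 12 for CD8 and 13 to 24 for CD4, share no number. Whether the pools pair by their order was not tested. With 3 pools a group and a floor of 3 counts, differences of genes near 0.1 CPM were not detectable.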
